A study of Mus musculus with 14 samples.

Results

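Sod1, Sod2, Sod3, Cat, Gpx1, Gpx3, Gpx4, Mt1 and Mt2 are 9 genes of the enzymatic defence against superoxide and peroxide and of the metallothioneins. They were chosen by name, and every probe set that the platform annotation assigns to 1 of them was taken, which gave 20 probe sets among the 34945 with a single gene (9 of 18194 genes). Probe sets were tested if at least 4 of the 14 arrays held them above the array's own 40th percentile. That left 19 of the 20, among 23887 probe sets in all, and the probe set left out, 1447761_x_at of Sod1, lay below that percentile on all 14 arrays. The RNA came from skeletal muscle precursor cells of C57BL/6 mice, freed from myofibres by enzymes and mechanical force and sorted as CD45-Ter119-Sca-1-CD29+Cxcr4+. The groups were young mice of 2 months (5 arrays), middle-aged mice of 12 months (4 arrays) and aged mice of 24 months (5 arrays), with no treatment or altered gene in the labels. Whether the arrays came from separate animals is not in the labels, so the p-values rest on the spread among these samples, which may be technical in part.

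Superoxide dismutases turn superoxide into hydrogen peroxide, Sod1 in the cytosol, Sod2 in the mitochondrial matrix and Sod3 outside the cell. Catalase, in peroxisomes, and the glutathione peroxidases then break peroxides down, and Gpx4 also reduces lipid peroxides in membranes. Metallothioneins are small cysteine-rich proteins that bind zinc and copper, and their genes respond to metals, glucocorticoids and inflammatory signals. Sod2 is known as a target of NF-kappaB, the transcription factor of inflammatory signalling.

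The upstream sequences of Sod2, Mt1 and Mt2 are shown because these genes gave the largest or most parallel differences with age in the values that follow. They come from RefSeq (GRCm38.p6), whose table matched 8 of the 9 genes by symbol; Sod3 had no entry. Each is the 250 bases before the listed start, on the plus strand. For Mt1 that start lies inside the RefSeq gene span, chr8:94178883-94180327, so part of its window does too, and its sites depend on the start used. Capitals mark matches to the metal response element core (TGCACNC or TGCGCNC) in Mt1 and Mt2 and to the NF-kappaB core (GGG, any 5 bases, CC) in Sod2, found on either strand.
Mt1, chr8:94178839-94179088: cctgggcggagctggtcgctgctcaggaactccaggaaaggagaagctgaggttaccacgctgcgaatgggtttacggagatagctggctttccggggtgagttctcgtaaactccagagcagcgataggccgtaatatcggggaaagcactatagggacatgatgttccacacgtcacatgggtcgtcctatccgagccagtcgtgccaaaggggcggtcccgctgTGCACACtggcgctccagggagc
Mt1 after the listed start, chr8:94179089-94179117: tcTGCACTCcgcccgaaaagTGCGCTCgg
Mt2, chr8:94172368-94172617: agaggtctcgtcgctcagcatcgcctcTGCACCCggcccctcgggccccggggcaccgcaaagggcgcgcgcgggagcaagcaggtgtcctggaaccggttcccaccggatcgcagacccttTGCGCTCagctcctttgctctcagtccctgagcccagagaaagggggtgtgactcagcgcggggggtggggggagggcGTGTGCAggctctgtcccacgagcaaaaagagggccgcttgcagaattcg
Sod2, chr17:13007589-13007838: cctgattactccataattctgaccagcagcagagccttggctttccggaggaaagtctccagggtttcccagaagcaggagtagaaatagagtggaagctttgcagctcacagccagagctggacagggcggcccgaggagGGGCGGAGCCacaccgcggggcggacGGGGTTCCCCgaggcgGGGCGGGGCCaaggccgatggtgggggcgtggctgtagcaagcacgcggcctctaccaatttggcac

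The metal response element core stood 3 times in the window of Mt1 and 4 times in that of Mt2, counted over the 250 bases before and 50 after the start. Of 32851 windows in the table, 25.7% held the core at least 1 time, 1.97% at least 3 times and 0.518% at least 4 times. None of the windows of Sod1, Sod2, Cat, Gpx1, Gpx3 and Gpx4 held it. The NF-kappaB core stood 3 times each in the windows of Sod2 and Cat, 2 times each in those of Gpx1, Gpx3 and Mt1, 1 time in that of Sod1 and 0 times in that of Mt2. Gpx4, with 4 windows in the table, held it between 0 and 2 times. Of all windows 50.8% held it at least 1 time and 13.6% at least 3 times. The antioxidant response element core (TGACNNNGC) stood 1 time each in the windows of Sod1 and Mt2, against 12.4% of all windows with at least 1. Overlapping matches were counted separately, and a match is a string of letters, not evidence of binding.

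The arrays were divided into 2 sets that crossed the ages, which touches several of the genes below. Set 2 held 6 arrays, namely aged 3, 4 and 5, middle-aged 1, and young 2 and 5, and set 1 the other 8. This division was read from the first principal component of the age-centred values, 31.3% of their variance, after the values were known. Arrays were split by the sign of their score on it, a cut that gives 2 sets in any data. Whether the sets are separate groups was not tested. RNA quality was read as the log2 signal at the 3' end of Gapdh and Actb minus that at the 5' end, where a smaller difference means more intact RNA. It averaged 4.30 ± 0.54 at 2 months, 3.85 ± 0.25 at 12 months and 3.54 ± 0.51 at 24 months (SD, n = 5, 4 and 5). The aged minus young difference was -0.77 (exact two-sided permutation p = 0.0714). All 12 satellite cell markers were measured, with 1 probe set a gene. Of these Fgfr4, Calcr and Chrdl2 fell in aged against young cells, where 0.987% of all genes fell. Only 1 of the 12 had a positive change there, and the median was -0.52 against -0.05 over all genes. In middle-aged against young cells 2 of the 12 were positive, with a median of -0.40 against -0.04, and 0 passed. Ptprc, which encodes the CD45 of the gate, lay below the 40th percentile on all 14 arrays. The median intensity of an array was between 19.0 and 21.2, from 19.0 to 19.8 in set 2 and from 20.2 to 21.2 in set 1. The 3' minus 5' difference was also lower in set 2 at 12 months (3.57 against 3.74 to 4.16). At 24 months it was 2.89 to 3.60 in set 2 against 3.87 to 4.16 in set 1, whereas at 2 months the sets overlapped. Array set, intensity and RNA quality therefore cannot be fully told apart. Precision rests on how many arrays each age had and on the spread of each probe set among them.

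Sod2 was the member that rose with age most clearly, and the rise was already there at 12 months. In aged against young cells 3 of the 19 probe sets rose, and 2 of them were Sod2 and 1 Mt1. None of the 19 fell. Among all probe sets tested, 2.21% rose and 0.888% fell in that comparison. In middle-aged against young cells 1 of the 19 rose, again of Sod2, against 1.18% of all probe sets. The F test over the 3 ages (limma, Benjamini-Hochberg adjustment) called 1 of the 19, the same Sod2 probe set, against 2.81% of all. In aged against middle-aged cells limma called 0 of the 19 and 0% of all probe sets, and 0 of the 19 had an unadjusted p under 0.05, against 8.74% of all. That unadjusted count was 8 of the 19 in aged against young cells, against 15.2% of all. It was 10 of the 19 in middle-aged against young cells, against 14.7% of all. Several of these probe sets share a gene, and both comparisons share the young arrays. Of 10 tenocyte markers 8 also rose at each later age against young cells, and their part in these results was not tested. In RNA of a sorted population, more cells of a type and more RNA per cell cannot be told apart.

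The Sod2 probe set 1448610_a_at had log2 intensities of 11.19, 11.50, 11.26, 11.18 and 11.25 on the 5 young arrays. The middle-aged arrays stood at 12.23, 12.07, 12.23 and 11.88, and the aged arrays at 12.33, 12.02, 11.99, 11.96 and 12.05. Every middle-aged and every aged array thus lay above the highest young one, while the middle-aged and aged arrays overlapped. Aged exceeded young arrays by a log2 change of 0.80 ± 0.13 (moderated SE), or 1.74-fold (limma, adjusted p = 0.00255). Middle-aged exceeded young arrays by 0.83 ± 0.13, or 1.77-fold (adjusted p = 0.00554). Aged differed from middle-aged arrays by -0.03, with a 95% interval from -0.32 to 0.25.

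Sod2 was measured by a further 3 probe sets, and all of them had positive changes at both later ages. Probe set 1417193_at stood at 9.48, 10.29, 9.51, 9.20 and 10.10 on young arrays. It stood at 11.17, 10.54, 10.56 and 10.18 on middle-aged arrays and at 10.44, 10.32, 10.81, 10.99 and 10.84 on aged arrays. The lowest aged array exceeded the highest young one, young 2, only narrowly, and middle-aged 4 lay below young 2. The change was 0.97 ± 0.23 (1.96-fold, adjusted p = 0.0330) in aged and 0.90 ± 0.25 (1.86-fold, adjusted p = 0.0804) in middle-aged against young cells. With a term for the array set it passed in middle-aged against young cells too (1.00 ± 0.13, adjusted p = 0.00142). Probe set 1454976_at stood at 7.22, 8.26, 7.25, 7.28 and 7.73 on young arrays, at 8.84, 7.96, 7.88 and 8.06 on middle-aged and at 8.28, 7.80, 8.69, 8.37 and 8.44 on aged arrays. Young 2 lay within the range of the older arrays. This probe set changed by 0.77 ± 0.24 (adjusted p = 0.111) and 0.63 ± 0.25 (adjusted p = 0.249) in the same comparisons and did not pass. With a term for the array set it passed in both, at 0.63 ± 0.14 in aged (adjusted p = 0.0193) and 0.73 ± 0.15 in middle-aged against young cells (adjusted p = 0.0159), and in aged against young cells also without young 2 (adjusted p = 0.0346). The sets were defined from these same values, so a call gained with them is no independent support. The dim probe set 1417194_at, below the 40th percentile on young array 2, changed by 0.46 ± 0.23 and 0.61 ± 0.25 and did not pass either.

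The 4 Sod2 probe sets differed in how they followed the array sets and RNA quality. Probe sets 1417193_at and 1454976_at were higher in set 2 than in set 1 at every age, by 0.67 and 0.67 at equal age. For 1448610_a_at that difference was 0.04. With this RNA quality measure added to the model, 1448610_a_at kept a change of 0.80 ± 0.16 in aged against young cells (adjusted p = 0.0207), whereas 1417193_at had 0.51 ± 0.23 (adjusted p = 0.270). The call of 1448610_a_at held when any single array was left out (adjusted p = 0.00332 to 0.0105). The call of 1417193_at was lost when young 1, young 3, young 4, aged 3, aged 4 or aged 5 was left out (adjusted p = 0.0685 to 0.0932). Within set 1 alone 1448610_a_at changed by 0.96 ± 0.19 in aged against young cells (adjusted p = 0.0243), and within set 2 alone by 0.63 ± 0.19 (adjusted p = 0.329).

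**Figure D1:**
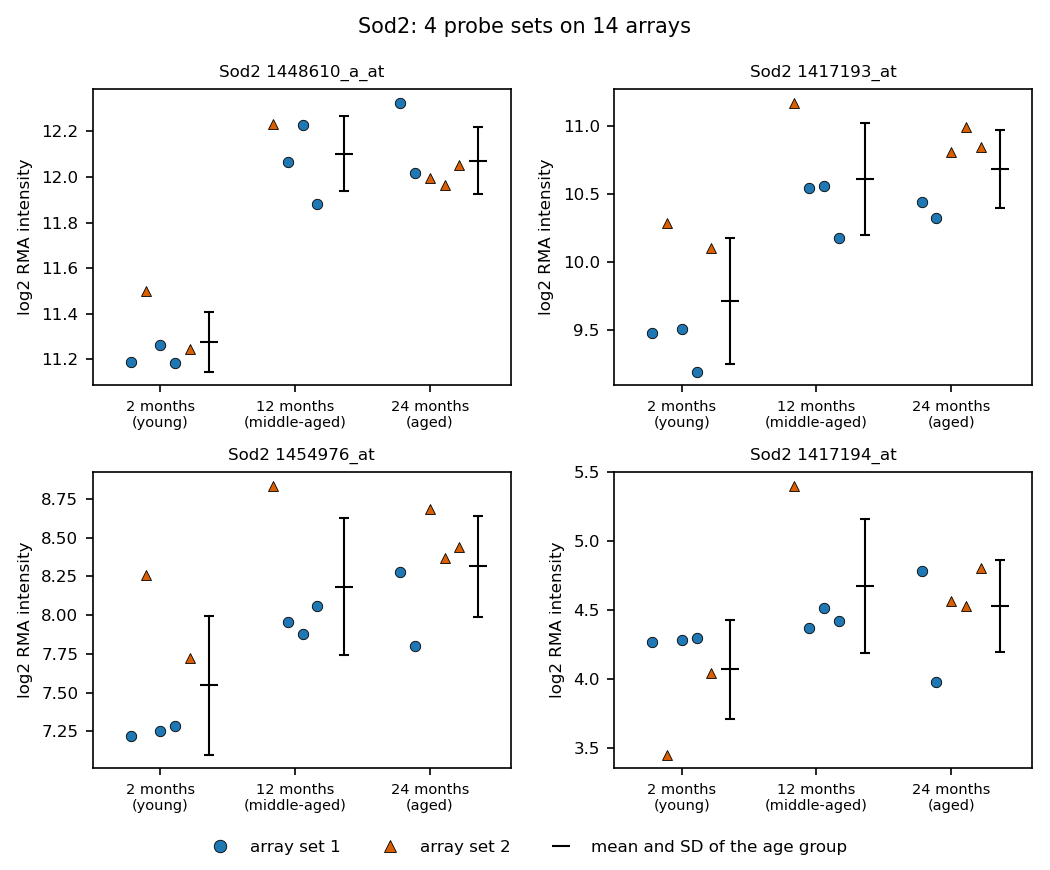
Log2 RMA intensity of the 4 Sod2 probe sets on each of the 14 arrays, by age. Circles are arrays of set 1, triangles arrays of set 2, and bars give the mean and SD of each age group (5, 4 and 5 arrays). For 1448610_a_at the young arrays end at 11.50 and the older ones begin at 11.88, while in 1417193_at and 1454976_at the triangles lie above the circles within each age.

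The 2 steps of age were compared directly. For 1448610_a_at, the change from 12 to 24 months minus that from 2 to 12 months was -0.86 ± 0.24 (unadjusted p = 0.00249), which did not pass over all probe sets (adjusted p = 0.221). None of the 19 probe sets passed that test, and 2 of the 19 had an unadjusted p under 0.05. Over all probe sets 10.9% did so, and limma called 0%.

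By the smallest root mean square difference over the 14 arrays, each profile centred on its own mean, the genes most like Sod2 1448610_a_at were Stat5a, Dram1 and Pnp. Their differences were 0.15, 0.17 and 0.19 log2 units per array, against a median of 0.54 over all probe sets. Stat5a, a transcription factor activated by cytokine and hormone receptors, averaged 6.17 at 2 months, 6.91 at 12 months and 6.81 at 24 months. Dram1, a lysosomal membrane protein that promotes autophagy, averaged 7.22, 7.98 and 8.04 at the same ages, and Pnp, purine nucleoside phosphorylase, 11.31, 12.18 and 11.99.

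Mt1 rose in aged against young cells, Mt2 missed the threshold narrowly, and both varied almost in step from array to array. The Mt1 probe set 1422557_s_at stood at 12.68, 13.14, 12.78, 12.64 and 13.10 on young arrays. It stood at 13.34, 13.26, 13.49 and 13.51 on middle-aged arrays and at 13.65, 13.35, 13.29, 13.89 and 13.26 on aged arrays. All older arrays lay above all young ones, and young 2 and 5, both of set 2, came closest to them. Aged exceeded young arrays by 0.62 ± 0.16 (1.54-fold, adjusted p = 0.0440), and middle-aged exceeded young by 0.53 ± 0.17 without passing (adjusted p = 0.131). The aged call was lost when only the aged and young arrays were fitted (adjusted p = 0.0907), and the middle-aged change passed with array weights (adjusted p = 0.0268) and within set 1 (adjusted p = 0.0394).

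The probe set of Mt2, 1428942_at, stood at 12.63, 13.10, 12.78, 12.58 and 13.00 on young arrays. It stood at 13.30, 13.13, 13.56 and 13.47 on middle-aged arrays and at 13.40, 13.30, 13.31, 13.55 and 13.16 on aged arrays. Here too no older array overlapped the young ones, although middle-aged 2 exceeded young 2 by little. The changes were 0.53 ± 0.14 in aged (1.44-fold, adjusted p = 0.0590) and 0.55 ± 0.15 in middle-aged cells (1.46-fold, adjusted p = 0.0809), both just short of the threshold. With 1 probe set a gene, a smaller number of tests, Mt2 passed in aged against young cells (adjusted p = 0.0447). In both comparisons it passed with log2(intensity + 16) (adjusted p = 0.0314 in aged and 0.0482 in middle-aged against young cells), with a trended robust prior (0.0209 and 0.0387) and with a term for the array set (0.0447 and 0.0440). With an array left out, Mt2 passed in aged against young cells only without young 2 (adjusted p = 0.0415). It never passed in middle-aged against young cells with an array left out.

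The centred profiles of Mt1 1422557_s_at and Mt2 differed by a root mean square of 0.10 log2 units per array. The ending _s_at marks probes that may match more than 1 transcript, so signal shared between these related genes cannot be told apart here. The dim second Mt1 probe set, 1451612_at, averaged 5.72 ± 0.33 at 2 months, 5.82 ± 0.43 at 12 months and 6.09 ± 0.17 at 24 months (SD). Its change of 0.37 in aged against young cells had a 95% interval from -0.06 to 0.79. The Mt1 call ended in 10 of the 14 fits that left out an array, at the highest without young array 1 (adjusted p = 0.119), and with RNA quality in the model (0.43 ± 0.19, adjusted p = 0.245), where Mt2 had 0.34 ± 0.16 (adjusted p = 0.306). Within set 1 the aged minus young change of Mt1 was 0.80 and within set 2 it was 0.36.

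**Figure D2:**
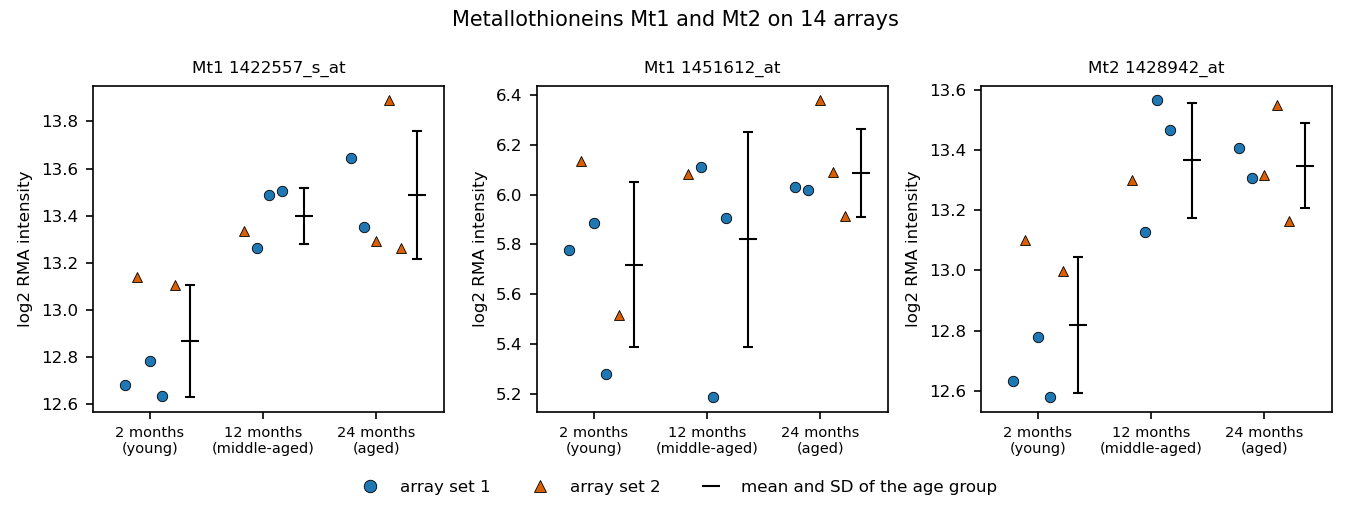
Log2 RMA intensity of the 2 Mt1 probe sets and the Mt2 probe set on each of the 14 arrays, by age, with the mean and SD of each age group. Circles are arrays of set 1 and triangles arrays of set 2. In Mt1 1422557_s_at and in Mt2 the young arrays reach 13.14 and 13.10, below every older array, and the pattern of points is nearly the same in both.

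The cytosolic enzyme Sod1 did not pass in any comparison of the main fit, and its probe sets did not move together. The main fit used all 14 arrays, unweighted and without further scaling, with age as the only factor. Probe set 1435304_at averaged 8.42 ± 0.22 at 2 months, 9.09 ± 0.25 at 12 months and 8.79 ± 0.44 at 24 months. All 4 middle-aged arrays, from 8.74 to 9.31, lay above the highest young array at 8.68, whereas aged array 5 stood at 8.04, below all young arrays. The change was 0.68 ± 0.21 in middle-aged against young cells (adjusted p = 0.133). It passed with array weights (adjusted p = 0.0178), within set 1 (adjusted p = 0.0236) and without aged 5 (adjusted p = 0.0453). The brighter probe sets 1451124_at and 1459976_s_at changed by -0.08 and -0.11 in that comparison, with 95% intervals from -0.58 to 0.42 and from -0.40 to 0.18. Probe set 1440222_at changed by 0.06, with an interval from -0.43 to 0.56. In aged against young cells the 4 changes ran from -0.06 to 0.37. The set 2 arrays of 1451124_at lay above those of set 1 at every age, by 0.56 at equal age. The probe set below the filter, 1447761_x_at, ranged from 2.70 to 3.37 over the 14 arrays.

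Sod3, the secreted dismutase, and Cat did not pass in the main fit and differed between the array sets. Sod3 1417633_at stood at 5.17, 4.47, 5.12, 5.17 and 4.62 on young arrays, at 4.67, 5.66, 6.39 and 5.95 on middle-aged and at 5.93, 6.59, 5.22, 4.66 and 5.05 on aged arrays. At each age every set 2 array lay below every set 1 array, by 1.04 on average at equal age, and only 2.19% of all probe sets had a larger difference between the sets. The sets were defined from these values among others, so this is a description. The aged minus young change was 0.58 ± 0.36 (adjusted p = 0.489), but 1.11 ± 0.26 within set 1 (adjusted p = 0.0461) and 0.43 ± 0.23 within set 2 (adjusted p = 0.610). With a term for the array set it was 0.79 ± 0.20 and passed (adjusted p = 0.0295), and with RNA quality in the model it was 1.23 ± 0.37 (adjusted p = 0.0916). The second Sod3 probe set, 1417634_at, changed by 0.13, with a 95% interval from -0.22 to 0.48.

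Catalase differed between the sets in the opposite direction. Cat 1416429_a_at stood at 8.68, 9.40, 8.67, 8.27 and 9.44 on young arrays, at 9.05, 8.16, 8.09 and 8.37 on middle-aged and at 7.93, 8.26, 9.11, 8.71 and 9.18 on aged arrays. Set 2 arrays were higher than set 1 arrays at every age, by 0.88 at equal age, and the second probe set, 1416430_at, gave 0.86. Of all probe sets, 4.43% and 4.72% differed more between the sets. With age the changes were -0.25 ± 0.29 and -0.10 ± 0.34 in aged against young cells, with 95% intervals from -0.86 to 0.36 and from -0.81 to 0.61. Cat was the only member all of whose probe sets had a negative change in both aged and middle-aged against young cells, and none passed.

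**Figure D3:**
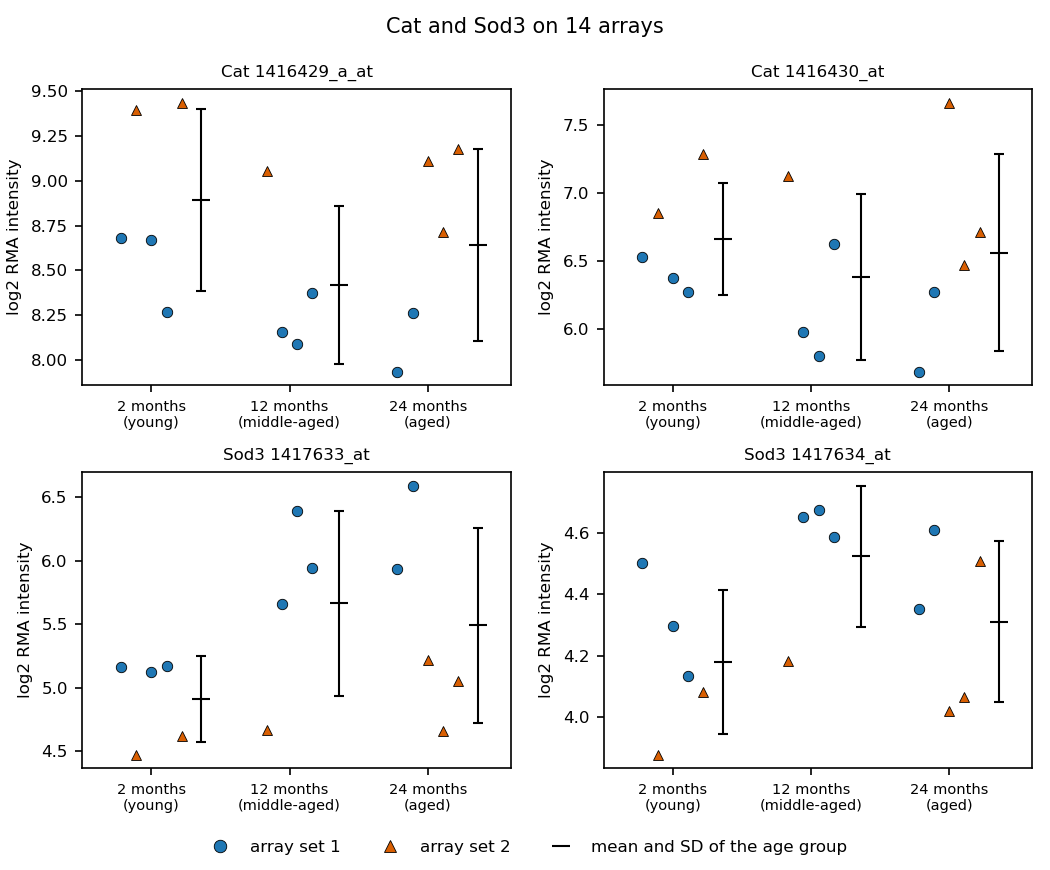
Log2 RMA intensity of the 2 Cat and the 2 Sod3 probe sets on each of the 14 arrays, by age, with the mean and SD of each age group. Set 2 arrays (triangles) lie above set 1 arrays (circles) at every age in both Cat probe sets and below them in Sod3 1417633_at, with set differences of 0.88, 0.86 and -1.04 at equal age.

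The glutathione peroxidases had positive changes at both later ages, and none passed in the main fit. Gpx4 1451695_a_at stood at 9.70, 10.06, 9.82, 8.92 and 9.87 on young arrays, at 10.39, 9.73, 10.39 and 10.40 on middle-aged and at 10.27, 10.13, 10.61, 10.92 and 10.54 on aged arrays. Aged and young arrays did not overlap, although aged 2 exceeded young 2 by little. The change was 0.82 ± 0.22 in aged against young cells (1.77-fold, adjusted p = 0.0590). With RNA quality in the model it was 0.30 ± 0.18 (adjusted p = 0.431). It passed with quantile normalization (adjusted p = 0.0439), with a term for the array set (0.74 ± 0.19, adjusted p = 0.0324), without young 2 (adjusted p = 0.0478) and without middle-aged 2 (adjusted p = 0.0486). The second Gpx4 probe set, 1456193_x_at, did not overlap between aged (11.26 to 11.70) and young arrays (10.88 to 11.21) and changed by 0.36 ± 0.14 (adjusted p = 0.219).

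Gpx1, the cytosolic peroxidase, stood at 9.32, 8.50, 9.40, 9.14 and 8.75 on young arrays, at 9.17, 9.39, 9.93 and 9.54 on middle-aged and at 9.45, 9.82, 9.74, 9.76 and 9.25 on aged arrays. The age groups overlapped, as aged 5 lay below young 1 and young 3. Aged exceeded young arrays by 0.58 ± 0.20 (adjusted p = 0.151), and by 0.35 within set 1 and 0.96 within set 2. With a term for the array set the change was 0.66 ± 0.17 and passed (adjusted p = 0.0344). The lowest values, 8.50 and 8.75, were on young arrays 2 and 5, both of set 2. Gpx3, the secreted peroxidase, averaged 12.68 ± 0.18, 13.08 ± 0.25 and 12.89 ± 0.31 at 2, 12 and 24 months. Its change was 0.20 in aged against young cells, with a 95% interval from -0.15 to 0.56, and 0.40 in middle-aged against young cells, from 0.02 to 0.78 before adjustment over all probe sets (adjusted p = 0.309).

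**Figure D4:**
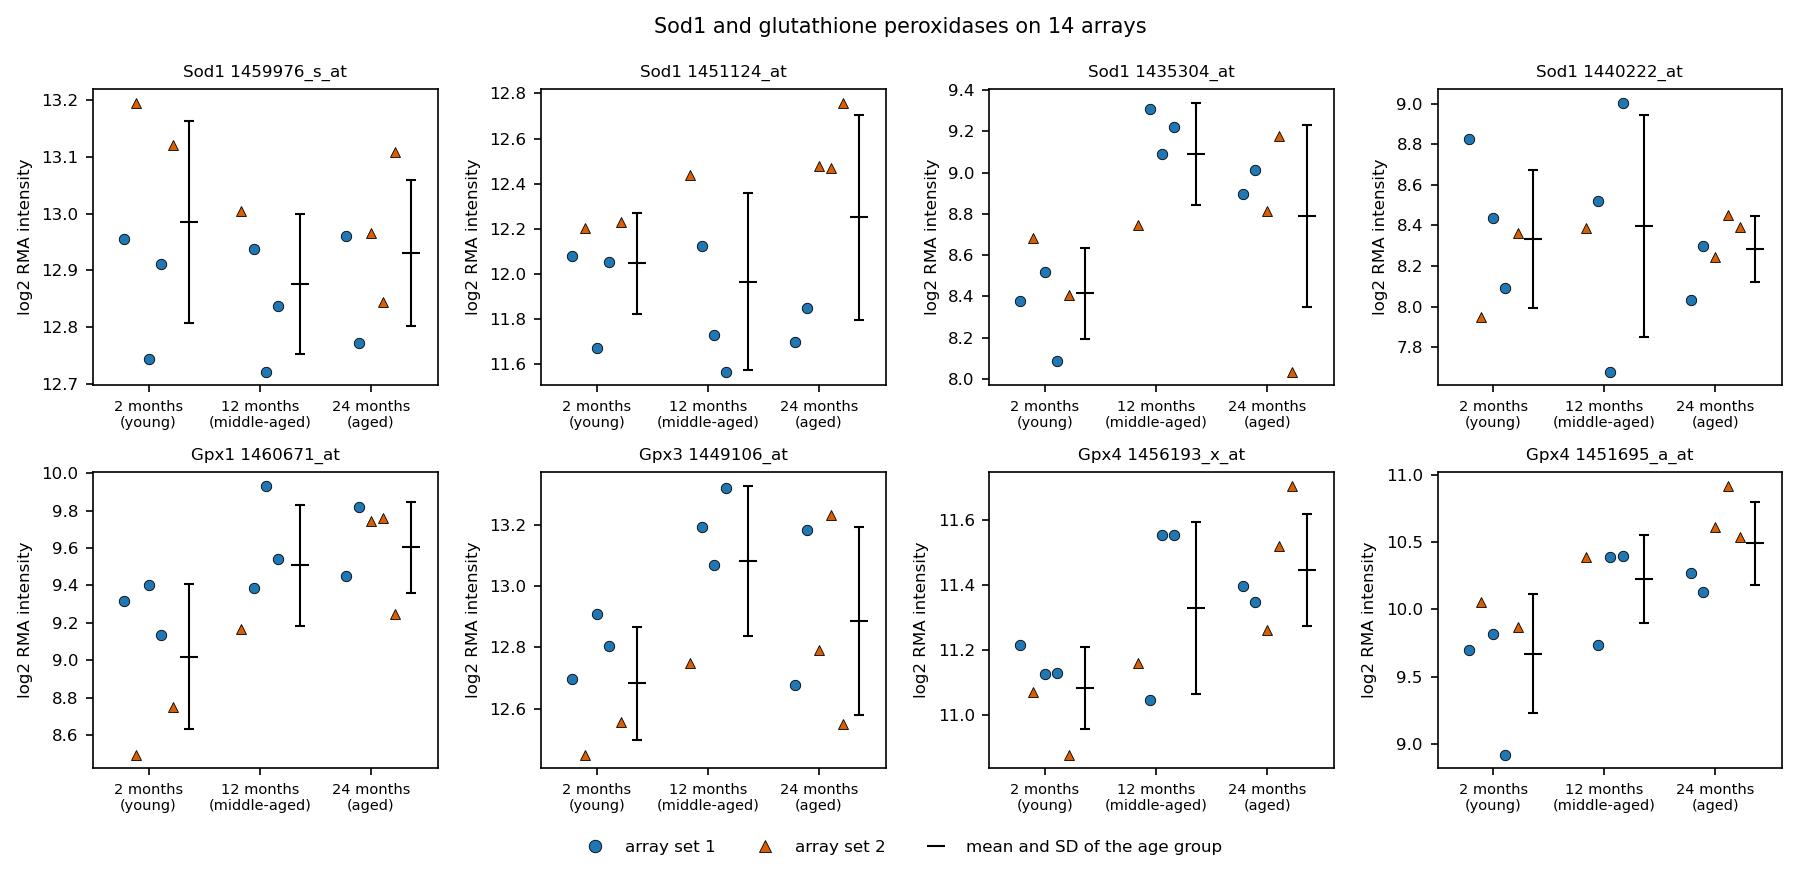
Log2 RMA intensity of the 4 Sod1 probe sets tested (upper row) and of Gpx1, Gpx3 and the 2 Gpx4 probe sets (lower row) on each of the 14 arrays, by age, with the mean and SD of each age group. The Sod1 probe sets show no shared order of the ages, whereas the lowest value of both Gpx4 probe sets and of Gpx1 lies on a young array.

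By direction, 15 of the 19 probe sets had a positive change in aged against young cells, with a median of 0.37. Over all probe sets tested 42.0% were positive and the median was -0.05. In middle-aged against young cells 15 of the 19 were also positive, with a median of 0.49 against -0.04 over all. These comparisons share the young arrays, and several probe sets share a gene. Aged and young arrays did not overlap in 6 of the 19 probe sets (2 of Sod2, both of Gpx4, 1 of Mt1 and that of Mt2), always with the aged arrays higher. Over all probe sets 4.63% did not overlap, 2.82% with aged arrays higher. Middle-aged and young arrays did not overlap in 5 of the 19, again with the older arrays higher, against 7.69% of all and 3.24% in that direction. Aged and middle-aged arrays overlapped in all 19, while 2.34% of all probe sets did not overlap, 1.20% with aged arrays higher.

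**Figure D5:**
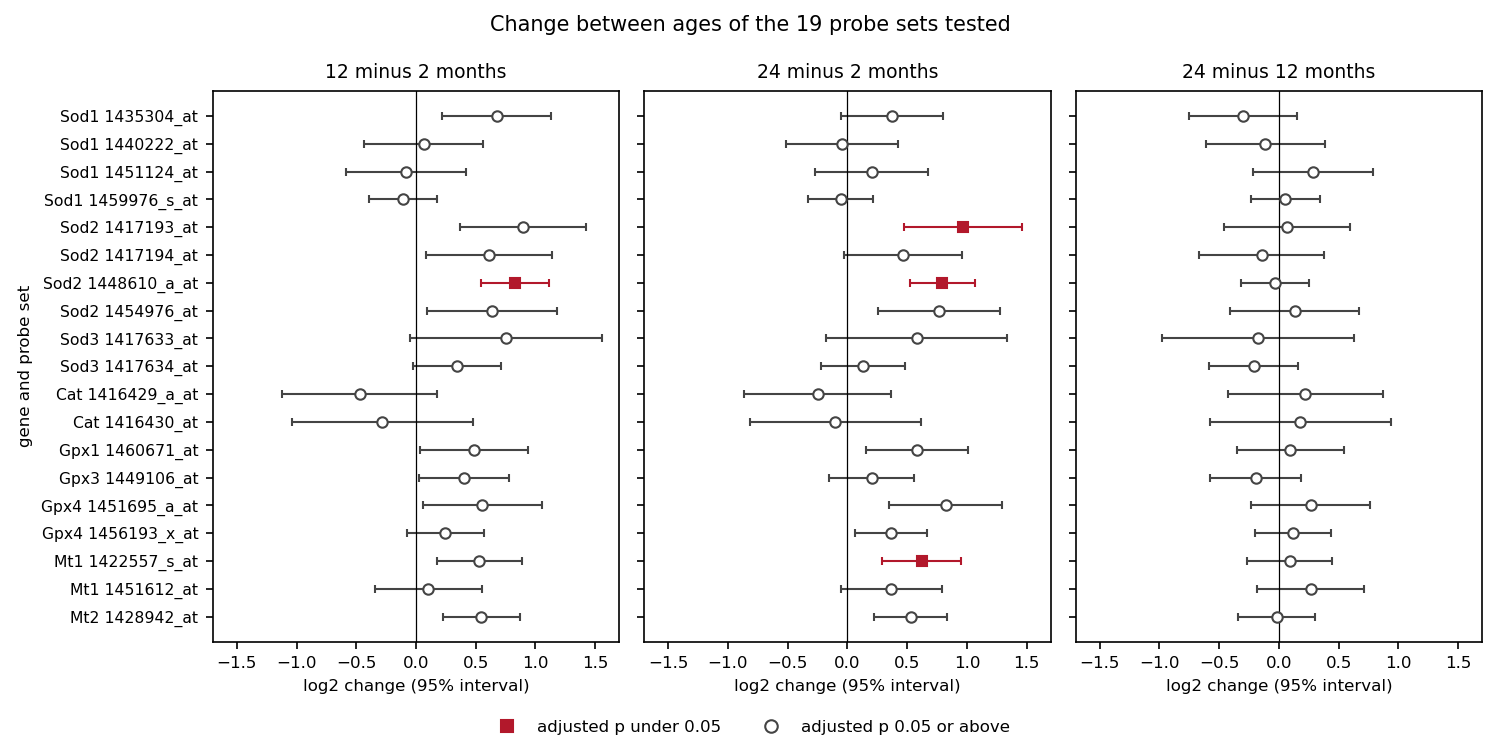
Log2 change with its 95% interval (limma) for each of the 19 probe sets tested, in 12 minus 2 months, 24 minus 2 months and 24 minus 12 months. Filled squares passed an adjusted p of 0.05 over all 23887 probe sets. The Sod2 probe sets lie between 0.46 and 0.97 in 24 minus 2 months and between -0.15 and 0.13 in 24 minus 12 months.

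Genes of the same defence beyond the 9 were counted by list. The following counts take 1 probe set a gene, the tested one with the highest mean, and under that rule 2.76% of 13579 genes rose and 0.987% fell in aged against young cells. In middle-aged against young cells 1.47% rose and 0.854% fell. Of 26 other peroxidases, peroxiredoxins and thioredoxins measured, 1 rose in aged cells and 0 fell, with a median change of 0.02 against -0.05 over all genes. The gene was Glrx, glutaredoxin, at 6.31 ± 0.69 on aged and 4.95 ± 0.28 on young arrays (SD, n = 5 each), a change of 1.36 ± 0.28 (2.57-fold, adjusted p = 0.0136). Of 24 selenoproteins and genes of selenocysteine insertion, which the glutathione peroxidases need, 1 rose, Selenom, a selenoprotein of the endoplasmic reticulum (1.05 ± 0.19, 2.06-fold, adjusted p = 0.00694).

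NRF2, encoded by Nfe2l2, drives many antioxidant genes, and of 19 of its regulators and targets measured 0 rose and 0 fell in aged against young cells, with a median of 0.14. In middle-aged cells Taldo1, of the pentose phosphate pathway, fell by 0.63 on the log2 scale (adjusted p = 0.0499). Of 26 genes of zinc and copper transport and metallothionein control, among them the metal-responsive factor Mtf1, 0 passed in either comparison, with medians of -0.03 in aged and -0.04 in middle-aged against young cells. Of 17 peroxisomal genes 0 passed, with medians of -0.10 and -0.23. Of 13 glucocorticoid response genes, which include feedback genes of the receptor, 1 rose in middle-aged cells, Fkbp5 (0.99 ± 0.23, adjusted p = 0.0378), and 0 in aged cells. None of the 15 dissociation response genes passed, with medians of 0.01 in aged and 0.02 in middle-aged cells.

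Genes that produce superoxide or peroxide included 3 that rose in aged cells, of 13 measured. They were Cyba, a membrane subunit of NADPH oxidases (1.63 ± 0.22, 3.10-fold, adjusted p = 0.000827), the NADPH oxidase Nox4 (1.39 ± 0.32, 2.61-fold, adjusted p = 0.0258) and the xanthine dehydrogenase Xdh (2.83-fold, adjusted p = 0.0346). Nox4 was dim on young arrays, at 3.76 ± 0.20 (SD), where the 40th percentile of an array lay between 3.79 and 3.96. In middle-aged against young cells 0 of the 13 passed, where 1.47% of all genes rose. The median of the 13 was 0.07 in aged and 0.05 in middle-aged against young cells.

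Of 19 NF-kappaB and interleukin 6 response genes measured, 7 rose in aged cells and 8 in middle-aged cells against young, with 0 lower in both and medians of 0.29 and 0.44. The 4 with the smallest p were the same in both comparisons: Serpina3n, an acute phase protease inhibitor, Nfkbie, an NF-kappaB inhibitor, Icam1, an adhesion molecule, and the cytokine Il6. Nfkbie averaged 8.90, 10.25 and 10.31 at 2, 12 and 24 months, and Icam1 averaged 9.28, 10.36 and 10.55. Serpina3n changed by 2.91 ± 0.36 in aged cells and 3.45 ± 0.39 in middle-aged cells, and Il6 by 3.29 ± 0.53 and 2.86 ± 0.56. In aged against middle-aged cells 0 genes of any of these lists passed (limma), as over all genes.

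Of the lists of markers of other cells, only that of tenocytes set the young arrays apart from both later ages in summed intensity. The log2 of the summed intensity of the tenocyte markers ran from 11.95 to 13.56 on young, from 15.11 to 16.08 on middle-aged and from 14.86 to 15.94 on aged arrays, so that, as in Sod2 1448610_a_at, the young arrays stood apart. Of 12 fibro-adipogenic and fibroblast markers 2 rose in aged and 1 in middle-aged cells, with summed values from 14.43 to 15.00 on young, from 15.07 to 15.74 on middle-aged and from 14.54 to 15.63 on aged arrays. Of 15 mature myofibre transcripts 11 rose and 1 fell in aged cells, and 0 rose and 1 fell in middle-aged cells, with summed values from 11.36 to 12.51 on young, from 11.62 to 12.56 on middle-aged and from 12.57 to 13.86 on aged arrays. Of 9 macrophage and myeloid markers tested Cd14 alone rose, at both later ages, and Ptprc, Itgam, C1qb and C1qc lay below the 40th percentile on all 14 arrays. The summed values of all 13 on this list ran from 8.33 to 8.73, from 8.62 to 9.22 and from 8.94 to 9.99 at 2, 12 and 24 months. Of the 4 erythroid markers tested 0 passed, and the summed value ran from 6.59 to 8.24 on aged and from 6.79 to 7.32 on young arrays. Of 8 endothelial markers tested 0 passed, and Pecam1 lay below the 40th percentile on all arrays, with summed values from 8.80 to 9.22, from 8.35 to 8.67 and from 8.19 to 10.08 at the same ages. Pdgfrb rose at both later ages among 10 pericyte markers, Scn7a in aged cells among 7 Schwann and glial markers, and Fabp4 in aged cells among 3 adipocyte markers tested. The summed values of all 5 adipocyte markers with a probe set ran from 6.16 to 7.19 on young and from 6.67 to 8.60 on middle-aged arrays. On aged arrays they ran from 7.35 to 11.15, above every young array. The part of these markers in the results for Sod2, Mt1 and the peroxidases was not tested.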

How the data were processed

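The authors deposited RMA intensities on a linear scale, 1 per probe set (RMA per the submitters' processing notes). Sources used here give neither its version nor a genome build. RMA corrects background, equalizes the arrays' distributions and combines probes. Here log2 of the deposited intensities was taken with no further scaling. Gene names came from the platform annotation of 2016. Of 45101 probe sets, 932 named several genes, 9160 none and 64 were controls, all left out. A linear model per probe set with age as its factor was fitted to all 14 arrays in limma 3.58.1 (R 4.3.3), and p-values were adjusted by Benjamini-Hochberg over 23887 probe sets, with calls under 0.05. Errors of changes are moderated SE, and errors of means SD. Probe sets were fitted, not genes, since the 9 genes have up to 5 each. The model was also run on simulated data with independent noise for each probe set and array. That run does not cover differences shared by several arrays, such as those between the sets, so it is no support for the calls. The members, gene lists, motifs and tests were chosen with earlier results of these data known. Named besides the members are up to 4 called genes per pathway list and comparison (those of smallest p) and the 3 profiles nearest to each member called by the F test. A few cell type markers were named after their values were seen. Alternatives covered the filter, scaling, offset, probe choice, model, RNA quality, array set and each array left out.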

Additional observations from a re-analysis of the deposited data

Results flagged for a closer look

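Within each age group the most extreme array was set against the rest (Dixon's ratio of its gap to the group's range, 95% level), and 4 of 57 groups exceeded the critical value, where chance gives about 1 in 20. Sod2 1448610_a_at was high on aged array 1, at 12.33 against 12.05 for the next array (ratio 0.752), and on young array 2, at 11.50 against 11.26 (ratio 0.753). Sod2 1417194_at was high on middle-aged array 1, at 5.40 against 4.52 (ratio 0.860). Gpx4 1451695_a_at was low on middle-aged array 2, at 9.73 against 10.39 (ratio 0.983).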

How the results depend on the processing

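The number of the 19 probe sets called in aged against young cells was 3. It was 4 with no filter, log2(intensity + 16) or a trended robust prior (Mt2 added), 4 with quantile normalization (Gpx4 1451695_a_at added), 4 within set 1 (Sod3 1417633_at added), 2 when only the groups compared were fitted (Mt1 lost) and 2 without the _s_at and _x_at probe sets, which include that of Mt1. With 1 probe set a gene it was 3, with Mt2 in place of Sod2 1417193_at. It was 1 with RNA quality in the model, 8 with a term for the array set and 0 within array set 2, and from 1 (without young array 1, 3 or 4 or aged array 4) to 6 (without young array 2) when an array was left out. In middle-aged against young cells it was 1. It was 2 with quantile normalization, log2(intensity + 16) or a trended robust prior, 5 with array weights, 4 with a term for the set, 6 within set 1 and 0 within set 2, and from 1 to 2 (without young array 2 or aged array 5) when an array was left out. For the F test it was 1. It was 2 with the filter at the array median, quantile normalization or log2(intensity + 16), 4 with the robust prior, 5 with array weights, 5 with the set term, 4 within set 1 and 0 within set 2, and 1 to 2 with an array left out. Aged against middle-aged and the comparison of the steps gave 0 with any array left out. The sets came from these same values, so calls gained with them are no independent support, and set 2 had 2 young arrays and 1 middle-aged array. Beyond those shown by fewer arrays, the causes were not tested. With a replicate block, 1 of the 19 was called in aged against young cells (Sod2 1448610_a_at, adjusted p = 0.0144). Of 13 same-numbered pairs 5 correlated above 0.1, with values from -0.47 to 0.31, and differently numbered pairs reached 0.47. Whether same-numbered arrays were handled together cannot be told from these correlations. No called change reversed its sign. Fits on only the groups compared gave no F test and no comparison of steps.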
